A study of Homo sapiens with 4 samples.

Results

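The transcripts of the cytochrome P450 family were followed across 4 arrays of human proximal tubular cells (HPTCs) stimulated with IL-1β and empagliflozin (Empa) together. The members were all array probes, control spots apart, whose gene name was CYP followed by a number, a letter and a number, with CYP51A1 left out of the 54 gene names that match. This gave 53 genes of the 25992 gene names on the array, read by 72 of its 34127 probes. The study used HK-2 cells, which carry human papillomavirus genes, and RPTEC/TERT1 cells, which carry the telomerase gene TERT, and both are established lines that were immortalised by these genes. Cells of each line were kept for 24 h without serum and supplements and then received IL-1β (10 ng/ml) with Empa (500 nM), an inhibitor of the glucose transporter SGLT2, for 24 h. Each line had 2 arrays by its label, and all 4 arrays carried the same stimulation. Arrays of unstimulated cells and of cells given IL-1β alone are not analysed here, and no value below is an effect of IL-1β or of Empa.

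Cytochrome P450 enzymes are haem proteins that insert an oxygen atom into their substrates, using electrons handed over by partner proteins of the endoplasmic reticulum or the mitochondrion. Members of the CYP1, CYP2 and CYP3 families act mostly on drugs and other foreign compounds, while other families make or break down steroids, bile acids, fatty acid mediators, retinoic acid and vitamin D. The proximal tubule is the main site where the circulating precursor of vitamin D is turned into the active hormone, by CYP27B1, and it also carries CYP3A and CYP4A enzymes.

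The arrays did not group by their labels. Across 17928 genes the Pearson correlation was 0.865 between the HK-2 arrays and 0.855 between the RPTEC/TERT1 arrays, but HK-2 replicate 1 correlated at 0.980 with RPTEC/TERT1 replicate 2, and the remaining arrays at 0.976 with each other. The replicate number is also the scan date, and within a number the correlation was 0.861 for replicate 1 and 0.875 for replicate 2. Between 59.2% and 64.9% of the spots of an array were well above background, a flag that the scanner software sets. Each array is therefore named by its label, values are given array by array, and arrays were not regrouped. Whether the labels are right was not tested, and every difference between HK-2 and RPTEC/TERT1 has the direction that the labels give.

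A level here is log2 of the processed signal divided by the 75th percentile of that array, with a common floor at -5.37, and every set of 4 levels below runs from replicate 1 to replicate 2 of HK-2 and then from replicate 1 to replicate 2 of RPTEC/TERT1. Of the 53 cytochrome P450 genes, 14 (26.4%) were well above background on all 4 arrays, against 53% of all genes. A further 16 were above background on 1 to 3 arrays, which makes 30 (56.6%, against 70.1% of all genes) on at least 1, and 23 (43.4%, against 29.9%) on none. Brightness at a single probe also depends on the probe, so levels were compared between arrays and not between genes. In RNA from a whole culture, fewer cells that use a gene and less RNA per cell cannot be told apart.

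By label, no cytochrome P450 gene passed the test between the lines. With limma over 16468 genes, 0 of the 26 members tested passed an adjusted p of 0.05, against a background of 0% (0 of 16468 genes). At an unadjusted p under 0.05 limma had 23 genes and 0 members, and its lowest unadjusted p among the members was 0.387, for CYP4F8. The median difference (HK-2 minus RPTEC/TERT1) was 0.13 for the members tested and 0.017 for all genes, with a median SE of 0.71 and 0.57. The methods describe the arrays of a condition as biological duplicates. The number of members called was also 0 when any 1 array was left out.

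Within a replicate, CYP27A1, CYP3A7 and CYP3A5 were among the members farthest apart, higher on HK-2 in replicate 1 and lower in replicate 2. In replicate 1, 13 of 26 members that could be compared (50%) were at least 2-fold apart, against 36.7% of all genes, 11 of them higher on HK-2 (background 20.1%) and 2 lower (16.6%). Among the 11 was CYP2A13 (1.09, log2), although its spot on HK-2 replicate 1 was not above background. In replicate 2, 14 of 29 (48.3%) were at least 2-fold apart, against 33.7% of all genes, with 5 higher on HK-2 (15.9%) and 9 lower (17.9%). These are 1 array against 1 array, with no test, and a gene above background on few arrays entered only through the arrays where it was high. Of the 14 members above background on all 4 arrays, 2 in replicate 1 and 3 in replicate 2 were at least 2-fold apart, against 31.3% and 29.5% of all genes above background on all 4. Over the other ways of processing, the counts ran from 2 to 20 in replicate 1 and from 3 to 15 in replicate 2.

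The direction turned over for 10 of the 25 members compared in both replicates. A group of 8, among them CYP27A1, CYP24A1, CYP2C19, CYP3A5, CYP3A7, CYP27C1 and CYP4F11, were at least 2-fold higher on HK-2 in replicate 1 and at least 2-fold lower in replicate 2, a pattern shown by 14.7% of all genes. CYP26C1 and CYP27B1 showed the opposite pattern, as did 12.9% of all genes, and 0 members were at least 2-fold apart in the same direction in both replicates (0.209% of all genes). RPTEC/TERT1 replicate 2 and HK-2 replicate 1 were at least 2-fold apart in 1 of 27 members, CYP4F2 (background 6.86%). RPTEC/TERT1 replicate 1 and HK-2 replicate 2 were so in 3 of 20, CYP4F8, CYP2A13 and CYP11A1 (background 7.92%).

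The smaller of these differences rested on the processing. With normexp and quantile normalization CYP24A1 (0.30 in replicate 1 and -0.39 in replicate 2, log2), CYP26C1 (-0.66 and 0.87), CYP27B1 (-0.66 and 0.43) and CYP4F11 (0.52 and -0.45) were under 2-fold in both replicates, as were CYP27C1 in replicate 1 (0.96) and CYP2C19 in replicate 2 (-0.99). So were CYP2A13 (0.11), CYP4F2 (0.50) and CYP4F8 (0.70) in replicate 1 and CYP2S1 (0.45), CYP2U1 (0.75) and CYP39A1 (-0.44) in replicate 2. The deposited log2 values were not scaled here, and their replicate 2 medians were 7.14 for HK-2 and 6.72 for RPTEC/TERT1. With them CYP24A1 (-0.29), CYP27B1 (0.76), CYP2S1 (0.86), CYP39A1 (-0.37) and CYP4F11 (-0.39) were under 2-fold in replicate 2.

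**Figure D1:**
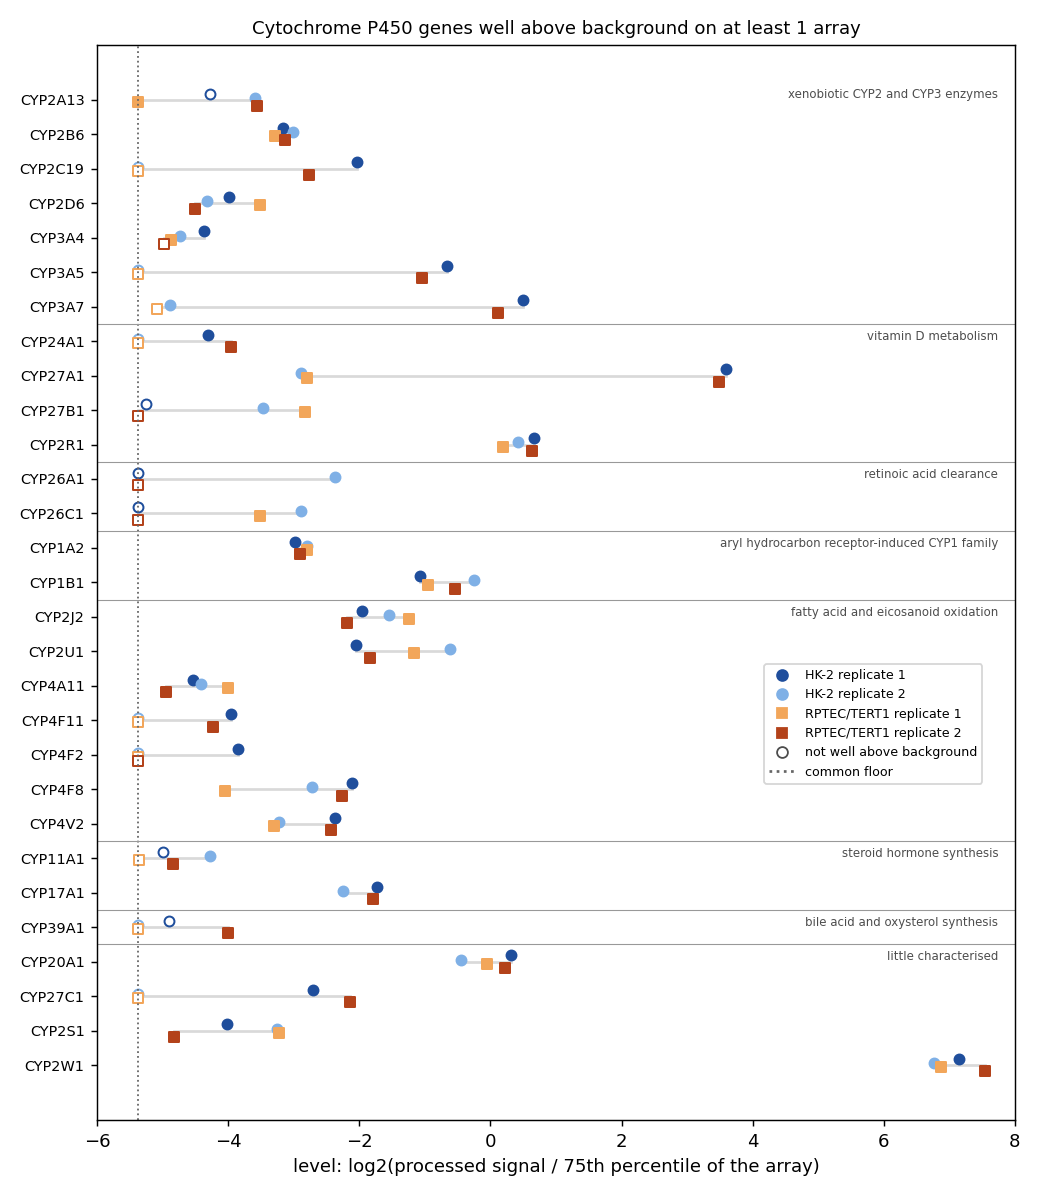
The horizontal axis is the level, log2 of the processed signal over the 75th percentile of the array, and each row is a cytochrome P450 gene above background on at least 1 array, grouped by role, 29 of them drawn. Circles are HK-2 and squares RPTEC/TERT1 arrays, open symbols are not well above background, and the dotted line is the common floor at -5.37; for CYP27A1, HK-2 replicate 1 (3.59) lies beside RPTEC/TERT1 replicate 2 (3.49).

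**Figure D2:**
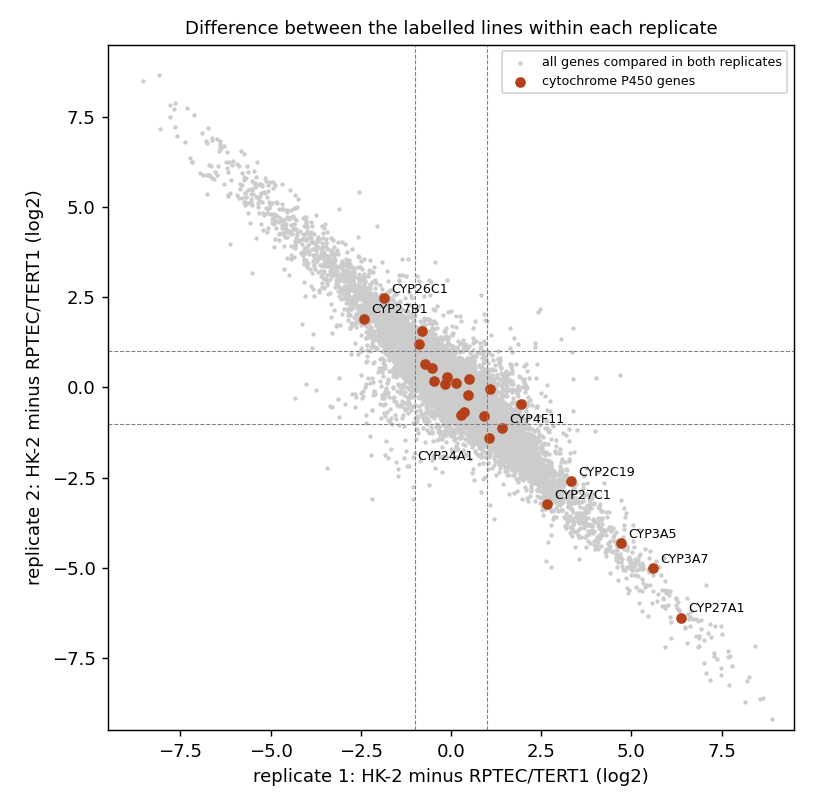
Each point is a gene, with its difference between HK-2 and RPTEC/TERT1 (log2) in replicate 1 on the horizontal and in replicate 2 on the vertical axis; red points are cytochrome P450 genes, grey points all genes compared in both replicates, and dashed lines mark 2-fold. The genes named in the plot lie in the upper left and lower right corners, and no red point lies beyond 2-fold in the same direction on both axes.

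All 4 enzymes of vitamin D metabolism were above background on some array, and 3 of them were far apart between arrays of 1 label. CYP27A1, a mitochondrial sterol hydroxylase that can make the circulating precursor of vitamin D and starts a bile acid pathway, was read by a probe at chr2:219679951-219680010 (GRCh37). Its levels were 3.59, -2.89, -2.80 and 3.49. It was above background on all 4 arrays, high on RPTEC/TERT1 replicate 2 and HK-2 replicate 1 and low on the other two, and the labelled groups overlapped fully. HK-2 was 83.7-fold higher than RPTEC/TERT1 in replicate 1 and 83.5-fold lower in replicate 2. By label the mean level was 0.35 ± 4.58 (SD, n = 2) for HK-2 and 0.35 ± 4.45 (SD, n = 2) for RPTEC/TERT1, a difference of 0.0016 with an SE of 3.12 (limma, adjusted p = 1).

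CYP27B1, which makes the active hormone, showed the mirror image at low levels of -5.25, -3.47, -2.84 and -5.37. RPTEC/TERT1 replicate 1 and HK-2 replicate 2 were above background and the other arrays were not. The difference was at least 5.33-fold in replicate 1, lower on HK-2, and at least 5.35-fold in replicate 2, higher on HK-2. With the deposited log2 values, which were not scaled here, the difference in replicate 1 turned to 1.41, higher on HK-2. Their array medians in that replicate were 8.33 for HK-2 and 6.75 for RPTEC/TERT1. Here "at least" sets the bright array against the dim array's own signal or its lowest signal above background, whichever is higher. This is taken before the common floor, so a bound can exceed the distance to the floor. Nor is it a strict lower limit, since a spot brighter than that lowest signal can still be not above background. On RPTEC/TERT1 replicate 1 the lowest level above background was -6.80, while a CYP3A7 probe at -4.82 was not above background.

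CYP24A1, which inactivates the hormone and is a classical target of its receptor, was above background on the arrays where CYP27B1 was not. The probe that measured it gave -4.30, -5.37, -5.37 and -3.97, at least 3.25-fold higher on HK-2 in replicate 1 and at least 4.65-fold lower in replicate 2. A second CYP24A1 probe was above background on no array. CYP2R1, the microsomal enzyme that makes the precursor, lay close together at 0.67, 0.42, 0.19 and 0.63, within 1.39-fold in replicate 1 and 1.16-fold in replicate 2. The vitamin D receptor gene VDR was at -2.03, -2.28, -2.76 and -1.55, and its partner RXRA at 1.37, 1.41, 0.73 and 1.79, all above background. For VDR the highest and the lowest array were the RPTEC/TERT1 arrays.

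**Figure D3:**
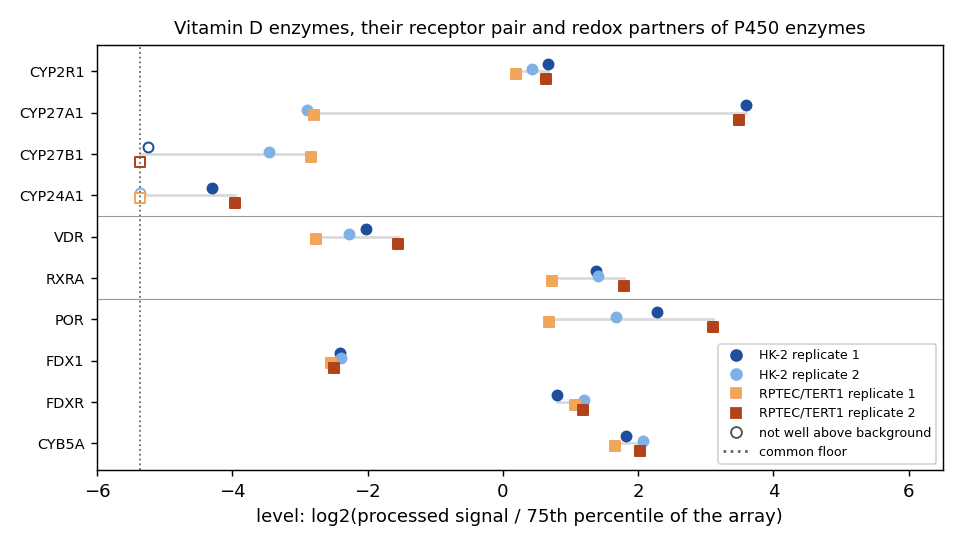
Levels (log2 of the processed signal over the 75th percentile of the array, horizontal axis) of the 4 vitamin D enzymes, of VDR and RXRA, and of POR, FDX1, FDXR and CYB5A, which pass electrons to P450 enzymes, on each of the 4 arrays. CYP27A1 is high on RPTEC/TERT1 replicate 2 (3.49) and HK-2 replicate 1 (3.59). CYP24A1 is above background on those arrays alone, at low levels of -3.97 and -4.30. CYP27B1 is above background on RPTEC/TERT1 replicate 1 and HK-2 replicate 2 alone, also low at -2.84 and -3.47, and CYP2R1 spans 0.19 to 0.67.

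Among the 14 CYP2 and CYP3 enzymes of drug metabolism, 8 were above background on some array and 2 on all 4. CYP3A5, the CYP3A form known from adult kidney, was read by 2 probes. The first, at chr7:99245899-99245958 (GRCh37), gave 1.75, -5.37, -5.37 and 1.43. It was therefore at the floor on RPTEC/TERT1 replicate 1 and HK-2 replicate 2. HK-2 was at least 183-fold higher in replicate 1 and at least 126-fold lower in replicate 2. The second probe gave -3.06, -5.37, -5.37 and -3.53 (at least 11.0-fold and at least 6.29-fold), in the same directions, and bounds do not show whether the sizes differ between the probes.

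CYP3A7, the form of the fetal liver, followed the same arrays. Its probe at chr7:99303037-99303096 gave 1.78, -4.42, -4.82 and 1.34, at least 96.9-fold higher on HK-2 in replicate 1 and 54.0-fold lower in replicate 2. The other CYP3A7 probe gave -0.78, -5.37, -5.37 and -1.12 (at least 64.9-fold and at least 33.5-fold). CYP3A4, the main drug-metabolising P450 of adult liver, has its probe 51.6 kb from the first CYP3A7 probe and lay within 2-fold in each replicate. Its levels were -4.37, -4.74, -4.88 and -4.98, the last of them not above background, and CYP3A43 was above background on no array.

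The start regions of CYP3A5 and CYP3A7 are shown because these neighbours moved together. They are RefSeq sequences of GRCh38.p14, from 250 bases before to 50 bases after the start, at chr7:99679947-99680246 and chr7:99735147-99735446, both on the minus strand. Capitals mark runs of at least 15 bases found in both windows, which cover 88 bases of each, the longest being 30 bases. The windows of CYP3A4 and CYP3A43 were not compared, so the runs do not set apart the genes that moved. Whether the shared bases bear on the levels was not tested.
CYP3A5: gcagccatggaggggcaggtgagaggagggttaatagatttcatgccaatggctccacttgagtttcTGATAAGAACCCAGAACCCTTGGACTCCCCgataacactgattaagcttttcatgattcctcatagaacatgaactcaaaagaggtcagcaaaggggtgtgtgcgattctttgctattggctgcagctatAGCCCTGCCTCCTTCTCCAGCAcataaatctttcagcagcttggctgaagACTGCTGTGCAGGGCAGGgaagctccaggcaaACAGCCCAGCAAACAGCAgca
CYP3A7: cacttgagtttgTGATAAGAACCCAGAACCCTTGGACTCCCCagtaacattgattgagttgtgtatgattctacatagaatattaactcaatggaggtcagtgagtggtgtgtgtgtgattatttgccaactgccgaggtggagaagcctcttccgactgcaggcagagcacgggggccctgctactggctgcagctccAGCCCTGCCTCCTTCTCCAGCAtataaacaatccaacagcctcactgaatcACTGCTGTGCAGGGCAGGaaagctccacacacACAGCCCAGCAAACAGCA

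CYP2C19, which metabolises many drugs and also epoxidises arachidonic acid, was seen on the same pair of arrays. Its levels were -2.04, -5.37, -5.37 and -2.77, at least 27.0-fold higher on HK-2 in replicate 1 and at least 10.6-fold lower in replicate 2. With normexp and quantile normalization, the CYP2C19 difference in replicate 2 was under 2-fold. CYP2C8 and CYP2C18, of the same gene cluster, were above background on no array.

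**Figure D4:**
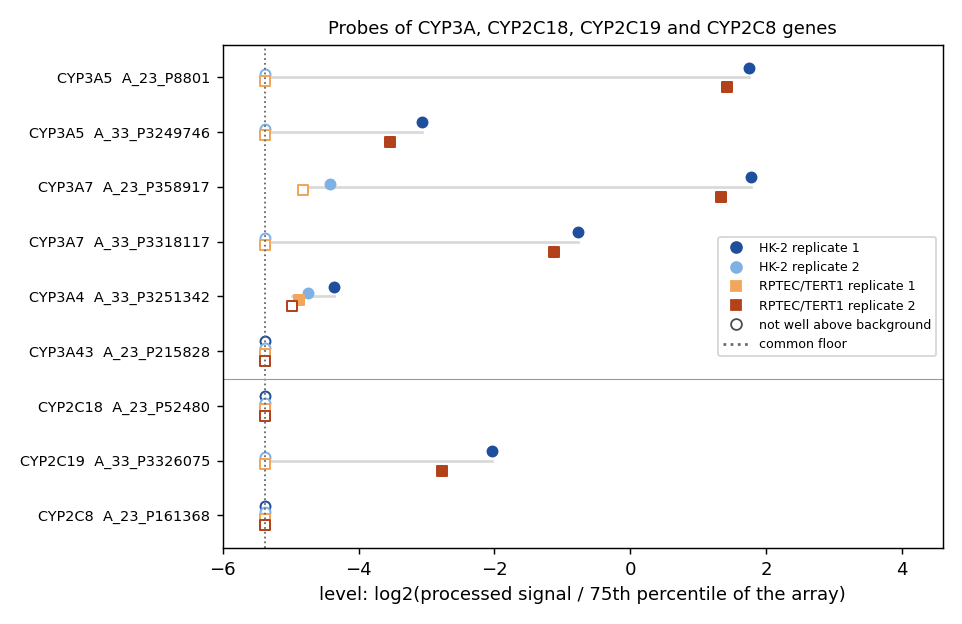
Levels (log2 of the processed signal over the 75th percentile of the array, horizontal axis) of the probes of the CYP3A genes (upper rows) and of CYP2C18, CYP2C19 and CYP2C8 (lower rows), in the order of their positions on the chromosome. The 4 probes of CYP3A5 and CYP3A7 and that of CYP2C19 are filled and to the right on RPTEC/TERT1 replicate 2 and HK-2 replicate 1, while CYP3A4, CYP3A43, CYP2C18 and CYP2C8 stay near the floor on all 4 arrays.

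The other drug-metabolising enzymes spanned smaller ranges. CYP2B6, an enzyme induced by many drugs, was at -3.16, -3.02, -3.29 and -3.14. This is a mean of 2 probes that went opposite ways. HK-2 minus RPTEC/TERT1 (log2) was 0.51 and -0.25 in replicate 1 and -0.61 and 0.85 in replicate 2. CYP2D6, a highly polymorphic drug-metabolising enzyme, was at -3.99, -4.33, -3.52 and -4.50. In replicate 1 a first CYP2D6 probe was 2.02-fold lower on HK-2 and a second 1.05-fold higher. CYP2A13, an enzyme of the airways, was at -4.28, -3.60, -5.37 and -3.57, the first of them not above background. CYP2A7, CYP2E1 and CYP2F1 were above background on no array.

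Of the 3 enzymes that clear retinoic acid, CYP26C1 was seen on both arrays where CYP3A5 was not, and CYP26A1 on HK-2 replicate 2 alone. CYP26C1 was at -5.37, -2.90, -3.51 and -5.37, at least 3.63-fold lower on HK-2 in replicate 1 and at least 9.41-fold higher in replicate 2, while its second probe was above background on none. In replicate 1 the deposited log2 values, which were not scaled here, turned it to 1.58, higher on HK-2. The array medians of those values were 8.33 for HK-2 and 6.75 for RPTEC/TERT1 in that replicate. CYP26A1, its neighbour on chromosome 10 with a probe 7.8 kb away, was at -5.37, -2.38 and -5.37 on the HK-2 arrays and RPTEC/TERT1 replicate 2, at least 13.5-fold higher on HK-2 in replicate 2. Its spot on RPTEC/TERT1 replicate 1 was marked as an outlier and dropped, so replicate 1 gave no comparison and CYP26A1 was not in the limma fit. With that spot kept its level there was -1.40. CYP26B1 was above background on no array.

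CYP26A1 is known to be induced by retinoic acid itself, through repeats of a short receptor-binding sequence. Its start region is shown for that repeat, AGTTCA followed after 5 bases of any kind by AGTTCA again, searched on both strands of the RefSeq promoter windows. The repeat was found in 4 of 35116 windows (0.0114%), among them 1 of the 50 windows available for 37 of the members, that of CYP26A1. Only this exact spelling was searched, and it is the spelling that the CYP26A1 window itself holds. Finding it there is therefore no result. The share holds for this spelling alone and does not single out CYP26A1 among the members. A match of letters is a description and not a binding site. The window is chr10:93073643-93073942 of GRCh38.p14, plus strand, and capitals mark the repeat, whose first base lies 90 bases before the start.
CYP26A1: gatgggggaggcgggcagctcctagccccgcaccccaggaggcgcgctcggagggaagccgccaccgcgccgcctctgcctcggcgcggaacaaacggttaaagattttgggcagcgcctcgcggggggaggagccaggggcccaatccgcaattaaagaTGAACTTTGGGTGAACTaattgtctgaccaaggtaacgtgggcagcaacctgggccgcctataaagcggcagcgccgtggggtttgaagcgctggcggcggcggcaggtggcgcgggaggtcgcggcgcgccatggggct

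The CYP1 family, which the aryl hydrocarbon receptor induces, lay within 2-fold in each replicate. CYP1B1, which acts on oestrogens and polycyclic hydrocarbons, was read by 2 probes above background throughout, at 0.03, 0.96, 0.10 and 0.86 and at -2.18, -1.45, -2.01 and -1.94. Neither probe reached 2-fold in a replicate. CYP1A2, a caffeine-metabolising enzyme, was at -2.98, -2.80, -2.81 and -2.90, and CYP1A1, the enzyme most used as a readout of this receptor, was above background on no array. The receptor gene AHR was at -0.30, -1.26, -0.69 and -0.19, and the gene of its repressor AHRR was above background on none.

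Of the 12 enzymes that oxidise fatty acids and eicosanoids, 7 were above background on some array and 5 on all 4. CYP2J2, an epoxygenase of arachidonic acid, was read by 10 spots per array and lay at -1.97, -1.54, -1.24 and -2.20, with an SD between spots of 0.077 to 0.24. It differed by 1.67-fold in replicate 1 and 1.57-fold in replicate 2, lower on HK-2 in the first and higher in the second. CYP2U1, which hydroxylates long-chain fatty acids, was at -2.05, -0.62, -1.17 and -1.83, that is 2.31-fold higher on HK-2 in replicate 2.

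CYP4V2, whose mutation causes Bietti crystalline dystrophy of the retina, was at -2.38, -3.23, -3.30 and -2.44. CYP4F8, which hydroxylates prostaglandins, was at -2.11, -2.72, -4.06 and -2.26. It stood out by RPTEC/TERT1 replicate 1 alone, where it was 3.85-fold below HK-2 replicate 1, and by label HK-2 exceeded RPTEC/TERT1 by 0.74 with an SE of 0.77 (limma, adjusted p = 1). CYP4F11, which hydroxylates fatty acids, was at -3.96, -5.37, -5.37 and -4.24 (at least 7.13-fold and at least 3.85-fold). A second CYP4F11 probe was above background on no array and was left out of these levels.

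CYP4F2, which breaks down vitamin K and leukotrienes, was above background on HK-2 replicate 1 alone, at -3.85, and its second probe was above background on no array. CYP4A11, a kidney enzyme that makes vasoactive arachidonic acid products, averaged -4.54, -4.42, -4.01 and -4.95, but its probes went apart. The probe at chr1:47398504-47398708 gave -4.23, -4.83, -5.37 and -4.53 and that at chr1:47394862-47394921 gave -4.85, -4.00, -2.64 and -5.37, so the mean describes neither. Neither probe alone was above background on all 4 arrays. CYP4A11 counts as such because on each array at least 1 of its probes was. CYP4A22, CYP4B1, CYP4F3, CYP4F12 and CYP4F22 were above background on no array.

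The enzymes of steroid hormone and bile acid synthesis were mostly not above background. Of 6 steroid enzymes, CYP11A1, which makes pregnenolone from cholesterol, was above background on both replicate 2 arrays, at -4.28 for HK-2 and -4.84 for RPTEC/TERT1. CYP17A1, which leads from pregnenolone to androgens, was at -1.73, -2.25 and -1.80, with the spot of RPTEC/TERT1 replicate 1 dropped as an outlier (1.79 if kept). CYP11B1, CYP11B2, CYP19A1 and CYP21A2 were above background on no array. Of 5 bile acid and oxysterol enzymes, CYP39A1, an oxysterol hydroxylase, was above background on RPTEC/TERT1 replicate 2 alone, at -4.00, and CYP7A1, CYP7B1, CYP8B1 and CYP46A1 on none.

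A further 6 enzymes have no settled main role, and CYP27C1 varied most among them. CYP27C1, which desaturates retinoids, gave -1.65, -5.37, -5.37 and -1.53 on a first probe (at least 35.4-fold and at least 25.2-fold) and -3.77, -5.37, -5.37 and -2.75 on a second (at least 8.13-fold and at least 10.8-fold). With normexp and quantile normalization, the CYP27C1 difference in replicate 1 was under 2-fold. CYP20A1, an enzyme without a known substrate, was at 0.31, -0.46, -0.05 and 0.22. CYP2S1, an epithelial enzyme induced by dioxin, was at -4.02, -3.26, -3.23 and -4.83. Its 10-spot probe was 2.34-fold lower on HK-2 in replicate 1 and 3.39-fold higher in replicate 2. The second CYP2S1 probe was 1.29-fold lower and at least 2.57-fold higher. Averaged over the probes, CYP2S1 was under 2-fold in replicate 1 (-0.79, log2). CYP4X1 and CYP4Z1 were above background on no array.

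CYP2W1, known from fetal colon and tumours, was at 7.16, 6.77, 6.87 and 7.55, with the spot saturated on both replicate 2 arrays. Its probe, at chr7:1029119-1029178 (GRCh37), shares a run of at least 15 bases with 13 probes of other gene names, where no other cytochrome P450 probe shares one with more than 1 and the median is 0. The 2 probes that share 20 bases or more with it were bright too, GCLM at 3.19, 3.62, 3.38 and 3.86 and ENST00000435033 at 5.86, 5.91, 5.84 and 6.26. How much of the signal came from CYP2W1 itself was not tested.

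Transcripts of most proteins that pass electrons to P450 enzymes were seen on all arrays. Of 10 genes for redox partners on the array, 9 were above background on all 4 and PGRMC1, a haem-binding partner, on 1 with no value on the others, and limma called 0 of the 9 tested. POR, the reductase of all microsomal P450 enzymes, was at 2.28, 1.67, 0.67 and 3.11, with a difference between HK-2 and RPTEC/TERT1 of 1.60 (log2) in replicate 1 and -1.44 in replicate 2. CYB5R1 and CYB5R3, reductases of cytochrome b5, and FDX1L, a mitochondrial ferredoxin, turned over in the same way, 4 of 9 genes in all, against 14.7% of all genes. FDX1, the ferredoxin of the mitochondrial P450 enzymes, lay at -2.41, -2.40, -2.54 and -2.49, and its reductase FDXR at 0.80, 1.19, 1.06 and 1.18, on arrays between which CYP27A1 differed 83.5-fold or more within a replicate.

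Genes of the aryl hydrocarbon receptor pathway, the receptors that control P450 genes and the conjugating enzymes were taken as lists, and limma called 0 genes in each. In the receptor pathway 5 of 9 genes were at least 2-fold higher on HK-2 in replicate 1 and lower in replicate 2, against 14.7% of all genes, among them ARNT2, NQO1, ALDH3A1 and UGT1A6. UGT1A6, a glucuronosyltransferase, was at -0.81, -4.66, -5.00 and -1.03. Of 17 nuclear receptors 13 were above background on some array, and 1 of 12 compared turned over (14.7% of all genes in its direction), the bile acid receptor NR1H4, at 0.85, -2.63, -3.96 and 0.71. NR1I2 and HNF4A, which drive CYP3A genes in the liver, were above background on no array, and NR1I3, a receptor of drug induction, was at -3.69, -5.12, -5.37 and -4.24.

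Of 22 conjugating enzymes on the array 20 were above background on some array (70.1% of all genes). Of 17 compared, 7 were at least 2-fold higher on HK-2 in replicate 1 and lower in replicate 2 (14.7% of all genes) and 4 the other way (12.9%). GSTM4, GSTP1, MGST2, UGT1A6, NAT1 and NAT2 were among those higher on HK-2 in replicate 1 and lower in replicate 2, and GSTM3, GSTT1, EPHX1 and EPHX2 the other way. GSTT1, a glutathione transferase whose gene is missing from many human genomes, was at -5.37, -1.64, -1.32 and -5.37. It was at the floor on the arrays where CYP3A5 was bright. EPHX2, which hydrolyses the epoxides that CYP2C and CYP2J enzymes form, was at -3.41, -1.56, -1.42 and -3.76.

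Some markers of the labelled tissue followed the same arrays as CYP27A1. Of 15 markers of the proximal tubule, 11 were above background on some array and 7 on all 4, while CUBN, SLC22A6, ALPL and HNF4A were on none. Their summed signal, in units of the 75th percentile, was 49.1, 5.23, 8.97 and 48.0, most of it from CDH16 and PAX8. Of 10 markers compared in both replicates, 4 were at least 2-fold higher on HK-2 in replicate 1 and lower in replicate 2, against 14.7% of all genes. CDH16, a cadherin of the kidney, was at 4.83, -0.55, -0.55 and 4.97, and ANPEP, a brush border peptidase, at 0.49, -5.37, -5.37 and 0.47. PAX8, a kidney lineage factor, turned over too, at 4.13, 1.61, 2.79 and 3.73. LRP2, an endocytic receptor, was at -3.34, -1.72, -2.77 and -3.06, MME, a brush border peptidase, at -4.45, -4.07, -3.59 and -4.42, and GGT1, an enzyme of the brush border, at -0.88, -0.56, -0.35 and -0.65. These 3 were highest on an array where CDH16 was low. SLC5A2, which encodes the target of Empa, was above background throughout, at -3.84, -3.08, -3.57 and -3.05.

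Of 8 hepatocyte markers, SERPINA1 was above background on all 4 arrays and APOA1 on 3, while ALB, APOB, TTR, FGB, TF and AHSG were on none, and their summed signal ran from 8.90 to 13.8. Of 5 markers of the loop and distal nephron 2 were above background, UMOD and SLC12A1, with a sum of 0.90, 0.24, 0.24 and 1.17. Of 4 fibroblast markers 2 were, COL1A1 and DCN, with a sum of 0.11, 0.75, 0.65 and 0.10. Endothelial markers (2 of 4 above background) summed to 0.20 to 0.39, and leukocyte markers (3 of 4) to 0.21 to 0.36. The part of any of these in the differences of the cytochrome P450 genes was not tested.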

How the data were processed

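Cy3-labelled RNA of cells given IL-1β and Empa was read on 1-colour Agilent arrays, with groups and replicate numbers from the labels. The authors deposited the intensity of each spot as Agilent Feature Extraction 9.5.3.1 gave it, in which the processed signal is corrected for background but not scaled between arrays. A series table that the authors deposited holds log2 values for these spots, used here as an alternative only, with array medians of 8.33, 7.14, 6.75 and 6.72; the scale and centring of these are not given in the sources used here, and their direction is that of the intensities. Gene names and positions are those of the files (GRCh37). The RefSeq table of GRCh38.p14, used for names and promoter windows, holds all 53 symbols, and 5 probes had a transcript it does not hold.

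Without control and outlier spots, each signal was scaled to the array's 75th percentile, floored at 0.0242 of it and taken to log2. Levels were averaged over the spots of a probe and then over those probes of a gene that were above background on at least 1 array. A gene counted as above background on an array where any of these probes was. Genes above background on at least 2 arrays (16468) were compared with lmFit and eBayes of limma 3.58.1 in R 4.3.3, with Benjamini-Hochberg adjustment at 0.05. This step was tested on simulated data with less spread within a label than these arrays have. That test therefore does not show what the fit could find here. Differences within a replicate, which is also a scan date, were called at 2-fold with no test. With 2 arrays per label, the number of arrays limits the precision.

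Members were named, those above background with their value on each array, and from the lists POR, AHR, VDR and the genes at least 2-fold apart in both replicates; RXRA, FDX1, FDXR, NR1I3, AHRR and SLC5A2 were added after their values were seen. Some items these rules would name are not reported here, and the counts include them. The members and lists were chosen with earlier results of these data known. Alternatives were normexp correction (offset 50) with quantile normalization, scaling to the median, quantile normalization, the deposited log2 values, the brightest probe, outliers kept, no floor, 2 other filters on dim probes, the replicate block, and each array left out. The deviations of same-numbered arrays from the means of their labels had a correlation of -0.810 across 16468 genes, and the numbers were not taken to pair the arrays. Each array lay on its own slide, so slide could not be fitted as a block and cannot be told apart from the array.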

Additional observations from a re-analysis of the deposited data

How the results depend on the processing

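By label, 0 genes and 0 cytochrome P450 genes passed under every alternative run, including each array left out, while the number of genes at an unadjusted p under 0.05 ran from 5 to 241. With the replicate block limma called 0 genes, with 5 genes at an unadjusted p under 0.05 against 23 without it. The 13 members at least 2-fold apart in replicate 1 became 5 with normexp and quantile normalization, 20 with the deposited log2 values and 2 when only genes above background on all 4 arrays were kept, and the 14 in replicate 2 became 6, 9 and 3; the last filter removes genes by construction, and for the others the cause was not tested. In replicate 1 the deposited log2 values turned CYP26C1 to 1.58 and CYP27B1 to 1.41. These values were not centred here, and their median was 8.33 for HK-2 replicate 1 and 6.75 for RPTEC/TERT1 replicate 1. Differences and counts taken from them include that difference between the medians.

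No difference by label passed the test, and several signs turned. With the deposited log2 values CYP1A2 went to 0.91, CYP20A1 to 0.39, CYP24A1 to 1.00, CYP27B1 to 1.08, CYP27C1 to 0.66, CYP2D6 to 1.01, CYP2J2 to 0.80 and CYP2W1 to 0.045. No centring was applied to those values, and even the lower HK-2 array median (7.14) exceeded the higher RPTEC/TERT1 one (6.75). Each of these differences includes that offset between the medians, so they do not show a change of single genes. Without the floor CYP26C1 went to -1.01, CYP27B1 to 0.0028, CYP27C1 to 0.11 and CYP3A5 to -2.77. Scaling to the median gave -0.043 for CYP27A1 and -0.022 for CYP4A11, and CYP4A11 went to -0.026 with normexp and to -0.041 with quantile normalization. With the brightest probe CYP2B6 went to -0.051, CYP2D6 to 0.018 and CYP4A11 to -0.42. Whether the signs with the deposited values would turn after centring was not tested, nor was the cause of the other turns. Leaving out 1 array at a time gave differences of -0.12 to 0.051 for CYP1A2, -0.32 to 0.50 for CYP1B1, -0.54 to 0.23 for CYP20A1, -0.87 to 0.53 for CYP24A1, -0.93 to 1.55 for CYP26C1, -3.24 to 3.24 for CYP27A1, -1.52 to 1.01 for CYP27B1 and -1.90 to 1.33 for CYP27C1. For others it gave -0.37 to 1.43 for CYP2A13, -1.30 to 2.03 for CYP2C19, -0.64 to 0.34 for CYP2D6, -0.51 to 0.44 for CYP2J2, -0.088 to 0.36 for CYP2R1, -0.41 to 1.19 for CYP2S1 and -0.55 to 0.88 for CYP2U1. It also gave -0.58 to 0.096 for CYP2W1, -2.16 to 2.55 for CYP3A5, -2.40 to 3.00 for CYP3A7, -0.47 to 0.47 for CYP4A11, -0.57 to 0.84 for CYP4F11, -0.15 to 1.64 for CYP4F8 and -0.37 to 0.50 for CYP4V2.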
